A study of Mus musculus with 16 samples.

Results

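Lipid droplets are the organelles in which cells keep neutral fat, and 10 genes for proteins that coat, fuse and build them are described here. They are Cidea and Cidec of the CIDE family, the perilipin genes Plin1, Plin2, Plin3, Plin4 and Plin5, the genes Fitm1 and Fitm2, and Bscl2, which encodes seipin. The members were chosen by gene family: every probe whose platform gene symbol, current or former, is one of these names was taken. All 10 genes had a probe among the 16593 genes with a symbol, and 11 of 25697 probes belong to them, Plin5 having 2 and each of the others 1.

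A droplet has a core of triglyceride and sterol esters inside a single layer of phospholipid, and it grows out of the endoplasmic reticulum. Seipin sits where the droplet meets that membrane, and the FITM proteins help neutral lipid to leave it. Perilipins lie on the droplet surface and control how easily lipases reach the core, whereas CIDE proteins pass lipid from small droplets to larger ones. Plin1 and Cidec are known from fat cells, Plin2 and Plin3 from nearly all cells, Plin4 from fat cells and muscle, Plin5 from tissues that burn much fat, Cidea from brown fat and Fitm1 from muscle. Marrow stromal cells can become osteoblasts or fat cells, so these genes bear on which kind of cell a culture holds.

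The RNA came from bone marrow stromal cells kept for 7 days under osteogenic conditions and was read on an Illumina mouse BeadChip. The study set 8 Hdac3 CKO arrays, in which Osterix1-Cre deletes the histone deacetylase gene Hdac3, against 8 wild type arrays, both of a mixed CD1/C57BL6 background. The Osterix promoter is active in the osteoblast lineage, so other cells of a culture can keep the gene. The labels give no age or sex, do not say whether wild type cells carried Cre, and do not tell separate animals from repeat cultures, so p-values measure the spread between arrays, which may be technical. Arrays are named as in their titles (KO15, WT13), and the title numbers form 5 runs of neighbours: numbers 5 and 7 make up run 1, 13 to 16 run 2, 21 to 24 run 3, 30 and 32 run 4, and 42 to 47 run 5. Runs 1 and 4 hold 1 array of each genotype and runs 2, 3 and 5 hold 2 of each. What a number marks is not stated.

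Values are log2 of probe intensities that appear normalized so that all arrays share 1 distribution (median intensity 97.1 to 97.2). As a background level, the 95th percentile of 1143 olfactory receptor probes was taken on each array, since these cells are not known to use such receptors, and it lay between 6.54 and 6.60. Hdac3 itself averaged 10.25 ± 0.077 in Hdac3 CKO and 10.42 ± 0.085 in wild type arrays (SD, n = 8 each, exact permutation p = 0.00249, two-sided), a 0.890-fold level. The Hdac3 difference did not pass in limma (adjusted p = 0.162 with the 5 runs as a fixed block, 0.932 without). It was -0.32 in run 2 but -0.019 in run 5, where KO47 (10.38) lay above WT44 (10.29). The sources used here do not say which exons Cre removes, so this probe may lie outside them. WT13 and WT14, the wild type arrays of run 2, stood apart: Eif2s3y, a Y-linked gene, read 5.89 and 6.17 there and at least 8.28 in every other array. Kdm5d, also Y-linked, read 6.32 and 6.25 there and at least 6.55 in the others, the lowest of which lay near the background level. The Y-linked Uty, near background as well, did not set WT13 and WT14 apart (6.65 and 6.66, the lowest other array 6.51). Xist, which silences an X chromosome in female cells, read 7.03 and 6.87 in KO15 and KO16, against 7.82 and 7.95 in WT13 and WT14. Fcer1g, an antibody receptor gene of myeloid cells, read 6.20 and 6.12 in them and at least 11.73 elsewhere. Of the osteoblast markers 6 of 9 measured were above background on all arrays, as were 7 of 16 adipocyte, 7 of 11 macrophage, 1 of 7 brown adipocyte and 1 of 8 skeletal muscle markers. Of all probes 42.8% were, so the adipocyte count lay near the share over all probes. The number of arrays limits the precision, and in such bulk RNA fewer cells of a type cannot be told from less RNA per cell.

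The promoter windows of Plin4, Fitm2, Plin1 and Cidec are shown, 4 genes that were high together in KO15 and KO16, as described below. Bscl2 was also highest in these arrays, but its windows are not printed. Each window shown is the 250 bases before a RefSeq start (GRCm38.p6), read 5′ to 3′ on the minus strand, on which all 4 genes lie. Cidec has 2 starts in the table, and the starts shown for Plin4 and Plin1 lie inside the outer end of the gene. Capitals mark matches to the motifs searched on both strands: AGGTCA (a nuclear receptor core), 2 of these in a row with 1 base between, TTGCNNAA (the C/EBP core), CCAAT (the CCAAT box), GGGCGG (the GC box), TATAA (the TATA box), AGAACA (a glucocorticoid receptor core) and CACGTG (an E-box).
Plin4, chr17:56109783-56110032: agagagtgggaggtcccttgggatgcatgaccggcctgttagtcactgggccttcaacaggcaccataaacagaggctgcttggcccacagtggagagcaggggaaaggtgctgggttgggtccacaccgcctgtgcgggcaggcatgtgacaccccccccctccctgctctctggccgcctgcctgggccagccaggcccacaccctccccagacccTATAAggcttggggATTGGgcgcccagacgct
Fitm2, chr2:163472630-163472879: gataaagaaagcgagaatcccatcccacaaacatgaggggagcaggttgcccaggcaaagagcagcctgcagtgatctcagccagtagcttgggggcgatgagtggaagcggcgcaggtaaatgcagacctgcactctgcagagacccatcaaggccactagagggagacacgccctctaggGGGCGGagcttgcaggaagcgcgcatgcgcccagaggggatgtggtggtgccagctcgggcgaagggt
Plin1, chr7:79732777-79733026: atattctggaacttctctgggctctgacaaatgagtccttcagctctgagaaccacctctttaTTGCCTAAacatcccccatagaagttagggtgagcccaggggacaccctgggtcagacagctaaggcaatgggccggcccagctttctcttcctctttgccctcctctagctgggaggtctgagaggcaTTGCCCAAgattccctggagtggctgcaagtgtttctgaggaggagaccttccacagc
Cidec, outer start, chr6:113435761-113436010: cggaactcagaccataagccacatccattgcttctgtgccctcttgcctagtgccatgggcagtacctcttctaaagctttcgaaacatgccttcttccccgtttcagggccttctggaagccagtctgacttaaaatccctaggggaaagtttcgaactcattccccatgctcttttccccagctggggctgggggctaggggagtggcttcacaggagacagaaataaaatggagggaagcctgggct
Cidec, inner start, chr6:113434765-113435014: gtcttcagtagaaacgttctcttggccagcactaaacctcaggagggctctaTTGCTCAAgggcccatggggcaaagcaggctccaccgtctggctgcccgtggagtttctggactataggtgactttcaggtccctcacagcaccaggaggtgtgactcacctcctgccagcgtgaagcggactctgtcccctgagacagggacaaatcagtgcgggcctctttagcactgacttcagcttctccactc

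The C/EBP core stood in the Plin1 window 187 and 58 bases before the start, and in the window of the inner Cidec start 198 bases before it, whereas 9.56% of 32851 such windows hold it. The Plin4 window held TATAA 32 bases and CCAAT (as ATTGG) 18 bases before the start, motifs found in 22.8% and 33.8% of all windows. The Fitm2 window held GGGCGG 68 bases before the start (32.7% of windows). Neither AGGTCA (14.02%), its repeat (0.0335%), AGAACA (16.1%) nor CACGTG (6.02%) was found in the windows shown. Of the Bscl2 windows, that of the outer start held CCAAT 187 and 69 bases before it. That of an inner start held AGGTCA 202 bases before it. That of another inner start held the stretch TTATAA, which matches TATAA on both strands (115 and 114 bases before the start). These are matches of letters and not measured binding sites. The Plin4 gene (chromosome 17, 56100587 to 56109948) lies next to Plin5 (56111597 to 56117606), with Plin3 (56278962 to 56290511) farther along.

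The members fell into those that every culture expressed and those near background. Plin2, Plin3, Plin4, Fitm2 and Bscl2 were above background on all 16 arrays, which 42.8% of all probes were. Cidea, Fitm1 and the Plin5 probe ILMN_2607215 were above it on none. Cidec passed it on 2 arrays (KO15 and KO16), Plin1 on 3 (KO15, KO16 and WT14) and the Plin5 probe ILMN_3158565 on 1 (KO7). No intensity lay below 53.1, so background appears not to have been subtracted, and differences of dim probes can be compressed.

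Plin4, whose protein coats young and small droplets, rose in the Hdac3 CKO arrays once the runs were taken into account. It read from 9.63 to 11.63 (median 10.41) in Hdac3 CKO arrays, against 9.06 to 10.81 (median 9.60) in wild type arrays. The groups overlapped as a whole, but within each run every Hdac3 CKO array stood above every wild type array. Only 0.463% of all probes were separated so in 5 of 5 runs, and Plin4 was the only member among them. The mean was 10.53 ± 0.77 in Hdac3 CKO and 9.83 ± 0.73 in wild type arrays (SD, n = 8 each), a 1.63-fold difference (log2 0.71).

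With the runs as a fixed block the standard error of the Plin4 difference was 0.12 (95% interval 0.45 to 0.96) and the limma adjusted p 0.0272. Plin4 was the 1 member probe of 11 called, against 0.218% of all probes (0.171% called higher and 0.0467% lower). Without a block the standard error was 0.34 and the adjusted p 0.932, and 0% of probes were called (0 of 25697 in limma, 1218 at an unadjusted p under 0.05). Its exact permutation p was 0.0803 over all arrangements of the arrays and 0.00231 within runs, the smallest that the 864 arrangements can give. The call was lost when any 1 of 7 of the 16 arrays was dropped (WT13, WT14, KO15, KO16, WT21, KO24 or WT42, highest adjusted p 0.0866). It was also lost without run 2, 3 or 5 (adjusted p = 0.466, 0.0736 and 0.0530), under a random run block (0.597) and when run means formed 5 pairs (0.300). Across the single arrays left out the difference stayed between 0.62 and 0.80.

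**Figure D1:**
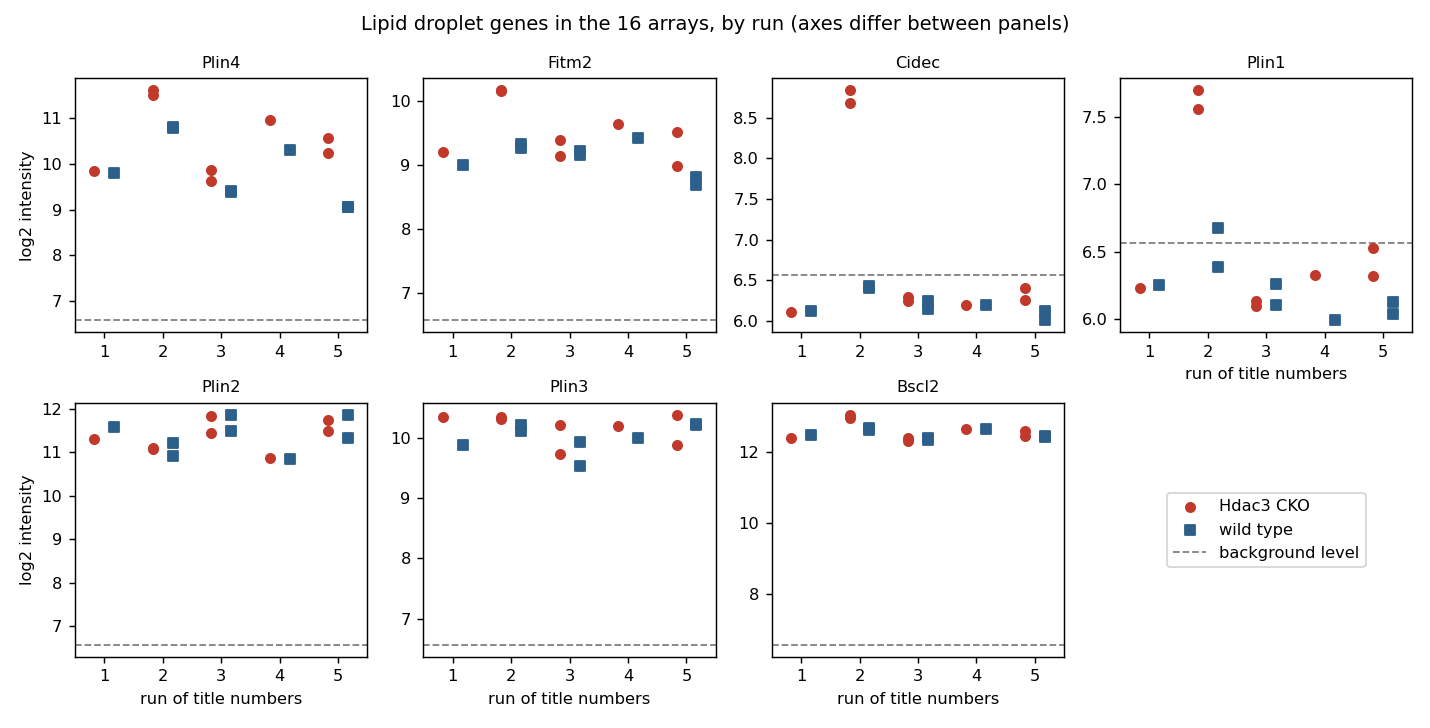
Log2 intensity of 7 members (vertical axis, scaled per panel) in the 5 runs of title numbers (horizontal axis), with a point per array, Hdac3 CKO left and wild type right in each run, and the background level as a dashed line. Plin4 is higher in Hdac3 CKO arrays in every run, whereas Cidec leaves the background only in KO15 and KO16 at 8.84 and 8.68.

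Plin4 also differed strongly between runs whatever the genotype. In run 1 it read 9.85 in KO7 and 9.80 in WT5. In run 2 it read 11.63 and 11.51 in KO15 and KO16, against 10.81 and 10.80 in WT13 and WT14. In run 3 it read 9.63 and 9.87 in KO23 and KO24, against 9.39 and 9.40 in WT21 and WT22. Run 2 was thus high in both genotypes and run 3 low in both. Run 4 had 10.97 in KO32 and 10.31 in WT30. Run 5 had 10.25 and 10.57 in KO46 and KO47, against 9.06 in both WT42 and WT44, the lowest of all arrays. Wild type arrays of the same run lay close together, while wild type arrays of different runs spread over more than the genotype difference.

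The size of the Plin4 difference was not the same in all runs. It was 0.050 in run 1, 0.76 in run 2, 0.35 in run 3, 0.66 in run 4 and 1.35 in run 5, where the Hdac3 CKO arrays were 2.55-fold as high as the wild type arrays. A limma F test of genotype by run called 3 of the 11 member probes, Plin4 (adjusted p = 0.0429), Plin1 (0.0378) and Cidec (3.09e-05), against 0.494% of all probes. For Plin4 this call was lost when any 1 of 9 of the 12 arrays of runs 2, 3 and 5 was dropped (highest adjusted p 0.136), and without run 1, 2, 3 or 5 (0.0649, 0.458, 0.155 and 0.173).

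**Figure D2:**
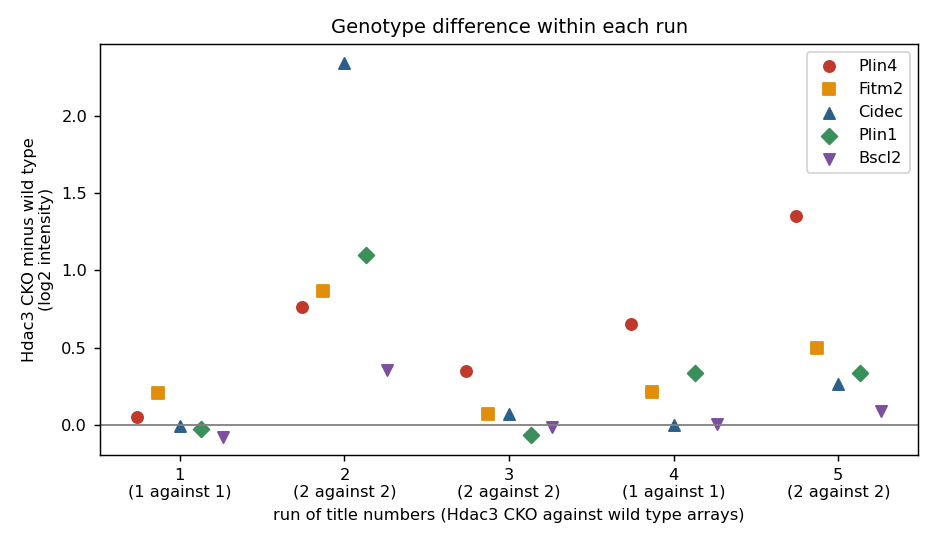
Difference of mean log2 intensity, Hdac3 CKO minus wild type (vertical axis), for 5 members within each run (horizontal axis, with the number of arrays of each genotype). Cidec (2.34), Plin1 (1.10) and Fitm2 (0.87) have their highest point in run 2 and Plin4 (1.35) in run 5.

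Cidec, which fuses droplets into the single large one of a white fat cell, was above background in the Hdac3 CKO arrays of run 2 and nowhere else. KO15 and KO16 read 8.84 and 8.68, and the other 6 Hdac3 CKO arrays lay no higher than 6.41. Wild type arrays lay between 6.01 and 6.43, so none was above background. Within run 2 the Hdac3 CKO mean was at least 4.60-fold the background level (8.76 against 6.42 in wild type, a difference of 2.34). In the other runs the difference was between -0.0061 (run 1) and 0.27 (run 5). Over all arrays the mean was 6.88 ± 1.17 in Hdac3 CKO and 6.21 ± 0.15 in wild type arrays (SD, n = 8 each). The Hdac3 CKO mean was 1.25-fold the background level, although 6 of its 8 arrays lay below that level. The log2 difference of 0.67 did not pass (limma adjusted p = 0.300 with the block and 0.932 without). The genotype by run call of Cidec held when each of those 12 arrays was dropped in turn (highest adjusted p 0.00100), but without run 2 its adjusted p was 1.00.

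Plin1, the perilipin that guards the large droplet of fat cells, followed the same arrays. It read 7.70 and 7.56 in KO15 and KO16 and from 6.10 to 6.53 in the other Hdac3 CKO arrays. Wild type arrays read from 5.99 to 6.68, with WT14 the highest. In run 2 the Hdac3 CKO mean was at least 2.10-fold the background level (7.63 against 6.53 in wild type). The overall difference of 0.38 (SE 0.12 with the block) did not pass in limma (adjusted p = 0.236 with the block, 0.932 without), although its exact permutation p within runs was 0.0231 (n = 8 each). Without run 2 the adjusted p of Plin1 for genotype by run was 1.00, and 8 of 12 single arrays ended that call when left out (adjusted p up to 0.265).

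In the arrays where Cidec and Plin1 were high, markers of fat cells, macrophages and osteoblasts differed as well. The summed intensity of the 16 adipocyte markers in run 2 was 37523 in Hdac3 CKO and 19537 in wild type arrays, a ratio of 1.92, and in the other runs the ratio was between 1.07 and 1.32. Over all arrays it ranged from 15659 to 38926 in Hdac3 CKO and from 12155 to 19864 in wild type arrays. Such sums follow the brightest probes most. Lpl, the brightest of these markers, read 14.35 and 14.25 in KO15 and KO16, against 13.48 and 13.52 in WT13 and WT14. Counted singly, 14 of the 16 markers were higher in Hdac3 CKO in run 2, with a median log2 difference of 0.68. Over all runs 13 of 16 were higher in Hdac3 CKO, with a median difference of 0.33. The brightest probe of Fabp4, a fatty acid carrier of fat cells, was above background on no array. Whether that probe can detect the RNA was not tested.

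The summed intensity of the 11 macrophage markers in run 2 was 48694 in Hdac3 CKO and 26038 in wild type arrays (ratio 1.87). It was 0.957 to 1.16 in the other runs, over a range of 38360 to 58740 in Hdac3 CKO and 24901 to 61375 in wild type arrays. Of these markers 10 of 11 were higher, none of them called, and none was below background on every array. The sum of the 9 osteoblast markers went the other way in run 2, with 43200 in Hdac3 CKO and 59746 in wild type arrays (ratio 0.723, and 0.757 to 1.19 in the other runs). Of these 9 markers 1 was higher in Hdac3 CKO in run 2 (Bglap, by 0.023). Whether cells of these kinds, or the low Eif2s3y and Kdm5d of WT13 and WT14, had a part in the run 2 differences of Cidec and Plin1 was not tested. Brown adipocyte markers summed to 554 to 625 in Hdac3 CKO and 513 to 619 in wild type arrays, and Ucp1, Dio2, Cox8b, Elovl3 and Prdm16 were above background on no array.

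Fitm2, which helps fat to bud from the endoplasmic reticulum into droplets, was higher in Hdac3 CKO arrays in all runs but did not pass. It read from 8.98 to 10.17 (median 9.45) in Hdac3 CKO arrays, against 8.68 to 9.42 (median 9.19) in wild type arrays. The groups overlapped, and KO15 and KO16 (10.17 and 10.15) were the highest. The mean was 9.52 ± 0.45 in Hdac3 CKO and 9.11 ± 0.26 in wild type arrays (SD, n = 8 each), a 1.33-fold difference. The log2 difference of 0.41 had a 95% interval of 0.20 to 0.63 with the block and a limma adjusted p of 0.119, or 0.932 without the block, and its exact permutation p was 0.0396 over all arrangements and 0.00694 within runs. Without run 2 it was 0.26. Fitm2 and Plin4 were the 2 member probes with a difference above 0 in 5 of 5 runs, which 4.32% of all probes had.

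Bscl2 showed little difference between genotypes outside run 2. It read from 12.31 to 13.06 in Hdac3 CKO arrays and from 12.34 to 12.70 in wild type arrays, with KO15 and KO16 (13.06 and 12.97) above all others. The difference was 0.10 (95% interval -0.017 to 0.22 with the block, limma adjusted p = 0.535), 0.36 in run 2 and between -0.073 and 0.092 in the other runs. With KO15 and KO16 left out and no block it was -0.034.

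The perilipins of most cells, Plin2 and Plin3, did not pass either. Plin2 read from 10.86 to 11.82 (median 11.37) in Hdac3 CKO arrays, against 10.84 to 11.86 (median 11.40) in wild type arrays. Its difference was -0.032 with a 95% interval of -0.22 to 0.15 with the block (limma adjusted p = 0.939), whose upper end lies below the lower end of the Plin4 interval. Without the block the intervals overlapped (-0.38 to 0.32 for Plin2 and -0.012 to 1.42 for Plin4). Plin3 read from 9.73 to 10.38 (median 10.27) in Hdac3 CKO arrays and from 9.53 to 10.22 (median 10.05) in wild type arrays. The Plin3 difference of 0.16 had a 95% interval of -0.028 to 0.36 with the block (adjusted p = 0.535).

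The remaining probes stayed near background in both genotypes. Cidea read from 6.11 to 6.30 in Hdac3 CKO and from 6.15 to 6.50 in wild type arrays, and Fitm1 from 5.93 to 6.22 in Hdac3 CKO and from 6.09 to 6.21 in wild type arrays. The Plin5 probe ILMN_2607215 read from 5.96 to 6.44 in Hdac3 CKO and from 6.03 to 6.25 in wild type arrays. The other Plin5 probe, ILMN_3158565, read from 6.29 to 6.68 in Hdac3 CKO and from 6.33 to 6.52 in wild type arrays. The 2 Plin5 probes had differences of opposite sign (-0.051 and 0.084), neither past the threshold. The means of both groups being below background, no fold is given for these genes.

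**Figure D3:**
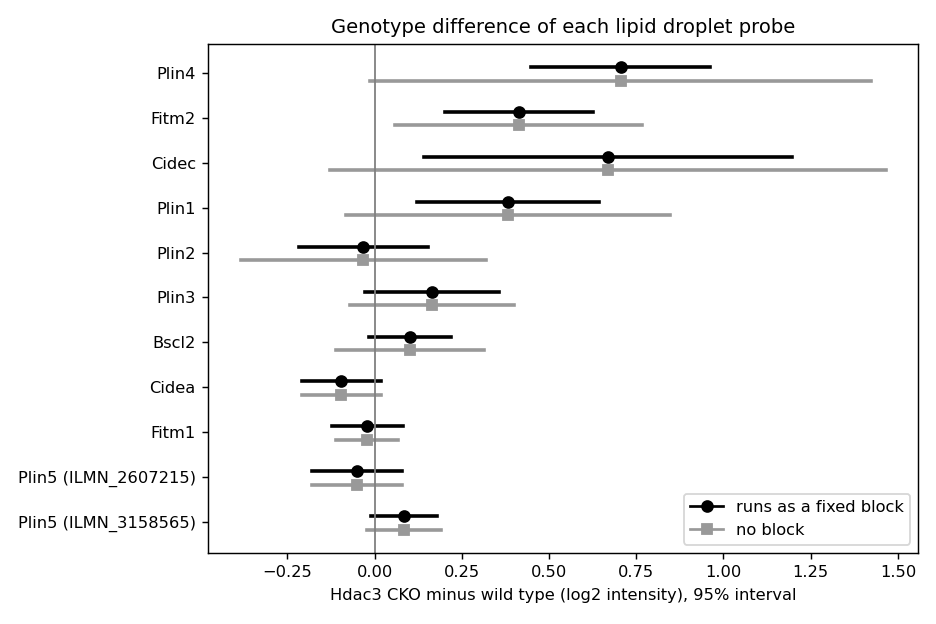
Difference of mean log2 intensity, Hdac3 CKO minus wild type (horizontal axis), for the 11 probes of the 10 genes, with 95% intervals from limma over 16 arrays, with the 5 runs as a fixed block (black) and without a block (grey). The Plin4 interval with the block runs from 0.45 to 0.96 and that of Plin2 from -0.22 to 0.15, whereas without the block the intervals of Plin4 and Plin2 overlap.

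Over the 11 member probes 7 were higher in Hdac3 CKO arrays, with a median log2 difference of 0.10, against 48.7% of all probes and a median of -0.0023. In run 2 alone the median was 0.17 over the members and -0.0088 over all probes, and Cidec and Plin1 were the 2 members with a run 2 difference over 1, which 0.459% of all probes had.

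Run was the main source of spread for most of the expressed members. A limma F test between runs, with genotype in the fit, called 6 of 11 member probes (Cidec, Plin1, Plin2, Plin4, Fitm2 and Bscl2), against 20.1% of all probes. Of the 5 members above background on all arrays 4 were called, against 38.9% of the 11011 such probes. Plin2 had 78.1% of its sum of squares between runs and 0.228% between genotypes (adjusted p between runs 0.00173). Bscl2 had 76.1% between runs (adjusted p 0.00308) and Plin4 71.1%, with 20.3% between genotypes (adjusted p between runs 2.10e-05). For Plin4 only 0.883% lay between arrays of the same run and genotype, and for Cidec 0.335%. Without run 2 only Plin2 and Plin4 were called between runs, and Cidec lost this call also without KO15 or KO16 (adjusted p = 0.118 and 0.124) and without run 3 (0.0590).

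**Figure D4:**
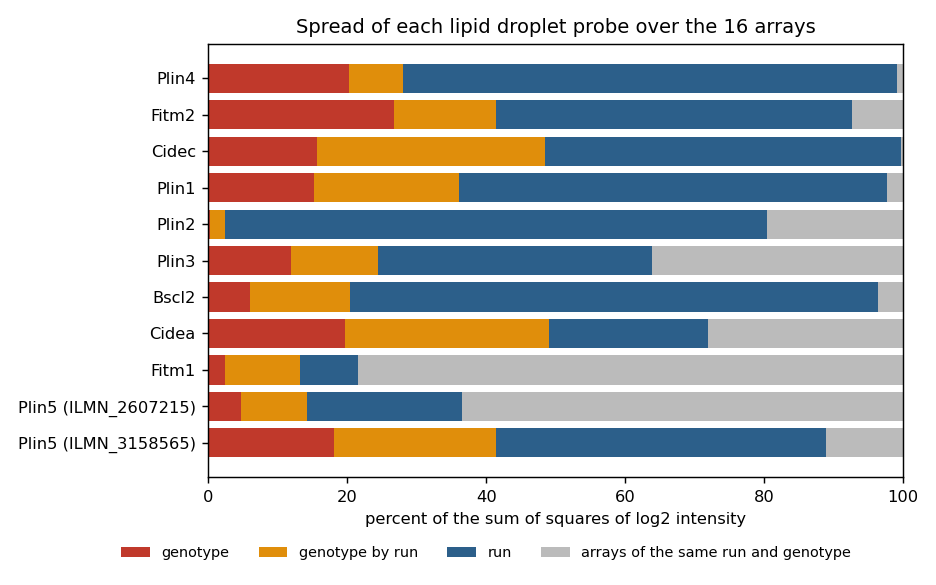
Percent of the sum of squares of log2 intensity over the 16 arrays (horizontal axis) that lies between genotypes, in genotype by run, between runs and between arrays of the same run and genotype, for each of the 11 probes. Run takes 78.1% for Plin2, whereas 78.4% of the Fitm1 spread, near background, lies between arrays of the same run and genotype.

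Plin2 was low in runs 2 and 4, the runs in which Plin4 was high. The run means of Plin2 were 11.44, 11.07, 11.65, 10.85 and 11.60 in runs 1 to 5, and those of Plin4 were 9.83, 11.19, 9.57, 10.64 and 9.74. Of the 10 pairs among the 5 members above background on all arrays, Plin2 and Plin4 had a Pearson r of -0.68 (permutation p = 0.00425, adjusted 0.00850) and a Spearman rho of -0.73 (permutation p = 0.00205, adjusted 0.00476) over 16 arrays. Without WT30 and KO32, the arrays farthest from the Plin2 median, r was -0.70. After the mean of each run was removed r was -0.060, so the relation did not hold within runs. The pairs of Plin2 with Fitm2 and Bscl2 likewise had r of -0.61 and -0.68 over all arrays and of -0.24 and -0.11 within runs. Plin2 and Plin3 differed from these in having a like r within runs, -0.66, beside -0.54 over all arrays (permutation p = 0.0309, adjusted 0.0435), although their rho of -0.40 did not pass (permutation p = 0.126, adjusted 0.140).

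Plin4, Fitm2 and Bscl2 were high in the same arrays. Plin4 and Fitm2 had r = 0.87 and rho = 0.85 (permutation p = 1.00e-05, the smallest the 100000 permutations can give, and 9.00e-05, adjusted 5.00e-05 and 9.00e-04). Without KO15 and KO16, the arrays farthest from the Plin4 median, r was 0.75, and with run means removed it was 0.83. Plin4 and Bscl2 had r = 0.89 and rho = 0.81 (permutation p = 1.00e-05 and 2.20e-04, adjusted 5.00e-05 and 0.00110), with r = 0.81 without KO15 and KO16 and 0.63 within runs. Fitm2 and Bscl2 had r = 0.84, with r = 0.51 without KO15 and KO16 and 0.90 within runs. Arrays of a run may share animals or days, so the permutation p-values over arrays can be too small.

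**Figure D5:**
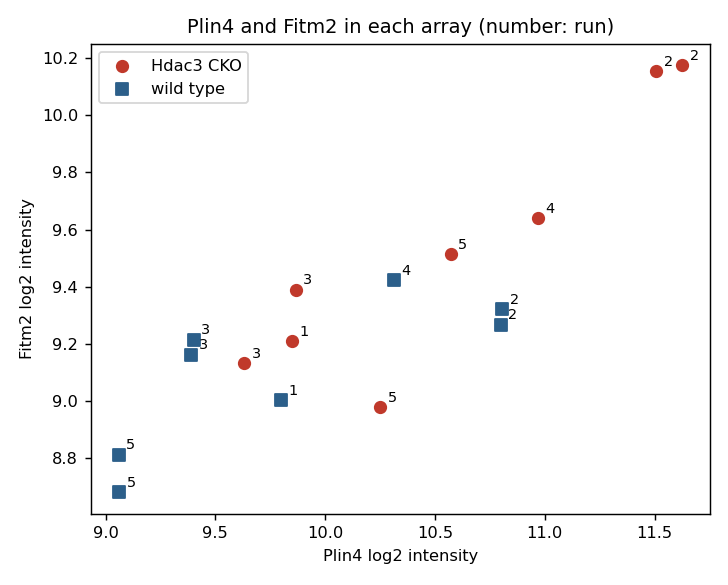
Log2 intensity of Fitm2 (vertical axis) against that of Plin4 (horizontal axis) in the 16 arrays, numbered by run, with Hdac3 CKO as circles and wild type as squares. The 2 Hdac3 CKO arrays of run 2 lie apart at the top right, and r is 0.75 over the other 14.

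The genes whose levels were most like those of Plin4 over the 16 arrays, among 8828 genes above the median probe, were St6galnac2, Aqp7, Colec12, Fbxw17 and Vstm4, with r from 0.92 to 0.96. Aqp7 is the glycerol channel of fat cells, and it kept r = 0.95 without KO15 and KO16 and 0.91 with run means removed. For St6galnac2, a sialyltransferase gene, these values were 0.95 and 0.90. Lyve1, Ffar2, Gpd1, Gpt and Lep were most like Cidec (r from 0.95 to 0.96), and over the 14 arrays other than KO15 and KO16 their r was between -0.29 and 0.66. Ffar2, Gsn, Lep, Rarres2 and Dgat2 were most like Plin1 (r from 0.95 to 0.96), and over those 14 arrays their r was 0.64 to 0.81. These genes were picked as the highest of all, so the correlations are a description.

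The other genes of the lipid droplet mostly did not pass. Of 20 listed droplet-associated genes 17 were measured. G0s2, the inhibitor of the lipase encoded by Pnpla2, rose and none fell (1 of 17, against 0.171% of all probes called higher), and 11 of 17 were higher, with a median difference of 0.021 beside 0.00071 over all genes. G0s2 averaged 8.68 ± 0.79 in Hdac3 CKO and 7.85 ± 0.52 in wild type arrays (SD, n = 8 each), a 1.78-fold difference (limma adjusted p = 0.00837 with the block, 0.932 without). Dgat2, which makes triglyceride, and Pnpla2 had differences of 0.54 and 0.59 that did not pass (adjusted p = 0.136 and 0.179 with the block). Both had a genotype by run adjusted p under the threshold (0.00130 and 0.0267), with run 2 differences of 1.38 and 1.64. Abhd5, the activator of that lipase, had a difference of 0.24 (adjusted p = 0.226 with the block). In the other direction, Hilpda and Acsl3 had differences of -0.31 and -0.20 (limma adjusted p = 0.237 and 0.335 with the block). Among the 16 adipocyte markers measured, the 4 that rose with the block were Adipoq, Aoc3, Mrap and Aqp7 (0 without it), against 0.171% of all probes called higher. G0s2 and these 4 lost their calls under a random run block and when run means formed 5 pairs, since 0 of 25697 probes were then called in limma (2043 and 2563 at an unadjusted p under 0.05).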

How the data were processed

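Probe intensities on a linear scale were deposited by the authors. They appear already quantile normalized between the 16 arrays, judging by medians of 97.1 to 97.2. The highest intensity of all was 37892. The BeadChip was biotin-labelled by a standard Illumina protocol per the labels, and neither software nor background steps nor filters are stated in the sources used here. Intensities were floored at 16 and log2 transformed. Symbols of 23978 probes came from the platform annotation, updated through Entrez identifiers to the GRCm38.p6 RefSeq table (23962 matched), and promoter sequences are from RefSeq. The brightest probe stood for a gene in lists.

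All 25697 probes were fitted with limma 3.58.1 in R 4.3.3 (two-sided, Benjamini-Hochberg adjusted over all probes, threshold 0.05): genotype alone, genotype with the 5 runs as a fixed block, genotype by run, and between runs. The p-values of limma in the text come from these fits. A run starts where title numbers jump by more than 4. Exact permutation tests used 12870 arrangements, or 864 within runs. The code was tested on simulated data. The members, lists, tests and settings were chosen with earlier results of these data known. Genes other than the members were named where they passed with the block, had the smallest p values of their list, were most like a member, or marked the arrays that stood apart. Lpl, Bglap, Hilpda and Acsl3 were named to show limits of their lists.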

Additional observations from a re-analysis of the deposited data

Results flagged for a closer look

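The Plin5 probe ILMN_2607215 read 6.44 in KO23, far above the other 7 Hdac3 CKO arrays for its spread, the nearest of which read 6.17. It is below background on every array, and about 1 in 20 of the 22 groups checked would be picked out by chance.

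The genotype difference itself differed between runs for 3 probes in the limma F test: Cidec (adjusted p = 3.09e-05), Plin1 (0.0378) and Plin4 (0.0429). Cidec and Plin1 had their highest difference in run 2 and Plin4 in run 5, and run 2 is the run whose wild type arrays read low for the Y-linked genes Eif2s3y and Kdm5d, though not for Uty.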

How the results depend on the processing

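Without a block no probe was called under any setting. With the runs as a fixed block 56 probes were called, 1 of them a member (Plin4). The count was 5 without run 2, 15 without run 3, 149 without run 4, 20 without run 5, 0 under a random run block and 0 with run means as 5 pairs, and, in a setting chosen after seeing the data, 10 without KO15 and KO16. It ran from 12 to 149 when single arrays were left out. The member count was 0 in each of these except without run 4, and 0 to 1 over single arrays. Background removal, the filter, cyclic loess and array weights kept the Plin4 call (difference 0.64 to 0.73). Leaving out KO15 and KO16 ended it (adjusted p = 0.277).

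Genotype by run called 127 probes, 76 with only probes above the median (0 members, since Cidec and Plin1 are then not tested and Plin4 has an adjusted p of 0.0693) and 191 with array weights. Chosen after seeing the data, leaving out run 2, 3 or 5 gave 10, 38 and 371 probes (0 members without run 2, 1 without run 3), and single arrays 42 to 213 (1 to 3 members). With background removed Plin4 had an adjusted p of 0.127. Between runs 5164 probes were called, 3307 without run 2 (2 members) and 2988 without run 3.

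The sign of members with a difference near 0 turned: Plin2 to 0.0040 without run 1 and, with no block, to 0.058 without KO15 and KO16, and without 5 single arrays (from -0.11 to 0.037 with no block and from -0.085 to 0.011 with it, over all 16). Fitm1 turned without 1 array (from -0.037 to 0.0038 and from -0.044 to 0.0083), and Bscl2 to -0.034 as given above. The cause was not tested. Pairing by run is given above (a fixed block, and run means as 5 pairs), whereas the replicate numbers of the labels are not shared between genotypes and could pair nothing. Dim probes are limited by the background that appears left in the intensities.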
